A study of Mus musculus with 7 samples.

Results

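The 301 regions described here were the autosomal gaps between lamin-associated domains (LADs) that measured over 250 kb and under 1 Mb. They were chosen by length from a merged list of LADs, as the stretch from the end of a domain to the start of the next on chromosomes 1 to 19, and were 301 of 1109 autosomal gaps and of 1416 gaps in all. The study profiled mouse embryonic fibroblast lines (named iMEF in the labels), derived independently from 1 mouse colony, by CUT&RUN, in which chromatin-bound antibody recruits a nuclease that frees nearby DNA for sequencing. Lamin B1 and the control IgG had 2 libraries each, H3K14ac had 1, and H3K9me2 had 2 that used separate antibodies, 7 in all. The cells are called wild type only in the list's name, and neither strain nor age is given in the sources used here. The list is a single pooled result without values per library, so no region has a replicate error, the read depth behind it is unknown, and the fibroblast identity could not be checked against marker expression. Every SD below is taken over chromosomes, which describes the genome and not biological replication.

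The nuclear lamina is a meshwork of lamins, Lamin B1 among them, under the inner nuclear membrane. Chromatin that contacts it forms LADs, which are known in many cell types as gene-poor, late-replicating stretches with low transcription and methylation of H3K9. The gaps between LADs reach into the nuclear interior and are known to hold most transcribed genes, and a short gap is a loop of interior chromatin held between lamina contacts on both sides.

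Promoter sequences show how far the genes of these gaps differ. The 6 below are the 250 bases before the outermost 5′ end of the gene (RefSeq, GRCm38.p6, the build mm10), 5′ to 3′, with each CpG in capitals. The olfactory receptor genes Olfr1366 (chr13:21538028-21538277, minus strand) and Olfr1392 (chr11:49293047-49293296, plus strand) are examples without CpG, with 0 in the whole window of 300 bases. Foxj2, a forkhead transcription factor gene (chr6:122819934-122820183, plus), and Six2, a homeobox gene of kidney progenitors (chr17:85688255-85688504, minus), are examples rich in CpG, with 37 each. Arhgap42, a GTPase-activating protein (chr9:9239028-9239277, minus), and Gja1, the gap junction protein connexin 43 (chr10:56377050-56377299, plus), were each the only protein-coding gene of their gap by midpoint. Those gaps, of 270.0 and 715.0 kb, were the shortest and the longest single-gene gaps whose gene had a promoter sequence to show.
Olfr1366: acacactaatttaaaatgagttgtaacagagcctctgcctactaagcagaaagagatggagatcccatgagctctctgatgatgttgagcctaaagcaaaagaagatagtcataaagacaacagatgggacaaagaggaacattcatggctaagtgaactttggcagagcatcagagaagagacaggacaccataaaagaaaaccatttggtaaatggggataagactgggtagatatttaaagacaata
Olfr1392: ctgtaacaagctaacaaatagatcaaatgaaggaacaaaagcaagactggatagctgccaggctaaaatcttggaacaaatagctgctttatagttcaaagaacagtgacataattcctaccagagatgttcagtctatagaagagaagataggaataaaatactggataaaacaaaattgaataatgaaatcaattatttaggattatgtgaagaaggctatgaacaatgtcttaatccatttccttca
Foxj2: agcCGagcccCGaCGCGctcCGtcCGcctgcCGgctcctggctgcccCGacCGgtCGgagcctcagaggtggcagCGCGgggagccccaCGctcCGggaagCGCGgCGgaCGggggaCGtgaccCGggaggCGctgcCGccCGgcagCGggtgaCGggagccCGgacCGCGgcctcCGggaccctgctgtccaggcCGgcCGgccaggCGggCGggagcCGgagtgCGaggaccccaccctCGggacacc
Six2: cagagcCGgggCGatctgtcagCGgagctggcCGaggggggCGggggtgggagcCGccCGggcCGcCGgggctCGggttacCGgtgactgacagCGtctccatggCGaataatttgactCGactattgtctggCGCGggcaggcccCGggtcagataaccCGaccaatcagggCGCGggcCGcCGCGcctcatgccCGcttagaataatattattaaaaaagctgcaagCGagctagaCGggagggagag
Arhgap42: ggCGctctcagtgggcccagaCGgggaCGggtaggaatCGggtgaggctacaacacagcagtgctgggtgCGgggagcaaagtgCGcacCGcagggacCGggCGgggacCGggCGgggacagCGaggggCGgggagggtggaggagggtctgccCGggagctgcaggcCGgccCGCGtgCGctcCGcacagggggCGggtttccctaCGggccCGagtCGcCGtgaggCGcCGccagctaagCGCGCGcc
Gja1: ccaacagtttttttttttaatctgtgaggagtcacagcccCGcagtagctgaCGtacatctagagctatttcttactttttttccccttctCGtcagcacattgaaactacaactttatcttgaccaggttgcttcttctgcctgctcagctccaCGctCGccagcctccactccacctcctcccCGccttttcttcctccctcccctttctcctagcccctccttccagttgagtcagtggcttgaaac
Arhgap42 carried 32 CpG in its 300 bases, and Gja1 carried 8.

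The 301 gaps held 120 of 1090 autosomal miRNA genes (11.0%), and of these 54 (45.0%) lay in 1 gap on chromosome 12, which also held the imprinted genes Dlk1 and Rtl1. All 54 had mature sequences in RefSeq, 100 in number with 91 different seeds (bases 2 to 8, the part that pairs with targets). Only 9 seeds were shared by 2 genes, of which 4 pairs are shown with the seed in capitals, to show miRNAs of the gap that share a seed and differ in the rest.
mmu-miR-379-3p: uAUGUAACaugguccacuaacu
mmu-miR-411-3p: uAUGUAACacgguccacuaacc
mmu-miR-379-5p: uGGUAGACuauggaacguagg
mmu-miR-1193-5p: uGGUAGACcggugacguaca
mmu-miR-376c-5p: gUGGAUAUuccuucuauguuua
mmu-miR-376b-5p: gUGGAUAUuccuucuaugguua
mmu-miR-1197-5p: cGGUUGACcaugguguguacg
mmu-miR-758-5p: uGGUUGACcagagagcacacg
Mir379 and Mir411 share the seed of their 3p arms, Mir379 and Mir1193 that of their 5p arms, so that 1 gene takes part in both of these pairs.

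The gaps had a median length of 450.0 kb, with quartiles of 337.5 and 627.5 kb. They made up 27.1% of the autosomal gaps, 12.7% of the bases between LADs and 6.37% of the chromosome spans (151 of 2370 Mb, each span running from the first to the last domain). The lengths just inside the limits were 252.5 kb on chromosome 1 (177614439-177866937, with Adss, of purine synthesis) and 997.5 kb on chromosome 1 (65902293-66899789, with Map2, which binds neuronal microtubules). Just outside lay a gap of exactly 250 kb on chromosome 12 and gaps of 1017.5 and 1020 kb on chromosomes 2 and 5. The class is a range of lengths set by the rule.

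Chromosomes differed in how much of them such gaps took up. The share of the span averaged 6.54% ± 2.27 (SD, n = 19 autosomes). It was highest on chromosome 19, where 10 gaps took 12.3% of the span, and lowest on chromosome 15, where 5 gaps took 3.04%. Chromosome 1 had the most gaps, 30. Gaps of this length were often next to shorter ones: of 589 neighbouring gaps along the chromosomes, 274 (46.5%) measured at most 250 kb, 146 (24.8%) were of the same class and 169 (28.7%) measured at least 1 Mb. These shares lay near those of the classes among all autosomal gaps (46.8%, 27.1% and 26.1%).

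The LADs on either side had a median length of 650.0 kb, with quartiles of 185.6 and 1617 kb, beside 543.7 kb for all autosomal LADs. At 95 gaps (31.6%) both flanking LADs reached 500 kb, and at 78 (25.9%) at least 1 flanking LAD was under 100 kb. The lengths of the left and right LADs had a Spearman rank correlation of 0.01 over the 301 gaps, given as a description. Of the 602 borders, 218 (36.2%) lay inside a protein-coding gene, between 38.5% for shorter gaps and 31.8% for longer ones. These lengths and borders come from the same Lamin B1 list that chose the gaps, so they were not tested. Over all bases, protein-coding genes covered 52.2% of these gaps and 27.9% of LADs, and the share of borders inside a gene lay between these values.

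Genes filled these gaps more densely than LADs. The gaps held 1562 of 19916 autosomal protein-coding genes (7.84%) on 6.37% of the spans. Per autosome, gaps of 0.25 to 1 Mb held 10.2 ± 2.57 protein-coding gene midpoints per Mb and LADs 3.96 ± 1.79 (SD, n = 19), and the gaps were higher on 19 of 19 autosomes by 6.23 ± 1.97 (two-sided paired sign-flip permutation test over autosomes, p = 2.00e-05, adjusted 1.00e-04 over 10 comparisons). Gaps of at least 1 Mb held 13.5 ± 3.80 genes per Mb, and the gaps of 0.25 to 1 Mb were lower on 16 of 19 autosomes, by -3.30 ± 3.43 (permutation p = 0.00102, adjusted 0.00255). With all annotated genes this difference, of -4.15 per Mb, was lower on 17 of 19 autosomes and did not pass (permutation p = 0.0254, adjusted 0.0604). Gaps of at most 250 kb held 9.37 ± 3.17 per Mb, and the difference of 0.813 ± 2.92 did not pass (permutation p = 0.243, adjusted 0.404). With all annotated genes that difference was 3.11 per Mb, higher on 15 of 19 autosomes, and missed the threshold of 0.05 (permutation p = 0.0253, adjusted 0.0504).

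Gene bodies followed a like order. Protein-coding genes covered 51.0% ± 6.82 of the bases of these gaps and 27.8% ± 4.12 of LADs (SD, n = 19), higher in the gaps on 19 of 19 autosomes (difference 23.2 percentage points ± 7.99, permutation p = 2.00e-05, adjusted 1.00e-04). The shares were 48.3% ± 9.70 in gaps of at most 250 kb (adjusted permutation p = 0.441) and 54.2% ± 4.82 in those of at least 1 Mb (adjusted permutation p = 0.0604), neither of which passed. The median gene measured 25.7 kb here, 23.3 kb in gaps of at most 250 kb, 18.5 kb in regions of at least 1 Mb and 10.3 kb in LADs. Genes over 200 kb were 3.71% of the genes here, 2.29% in gaps of at most 250 kb, 3.01% in regions of at least 1 Mb and 9.92% in LADs. These values are over genes and were not tested. The gaps held 907 of 12066 long noncoding RNA genes (7.52%), or 6.01 per Mb, beside 2.93 in LADs and 7.56 in regions of at least 1 Mb. They held 564 of 8646 pseudogenes (6.52%), or 3.73 per Mb, beside 3.81 in LADs.

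**Figure D1:**
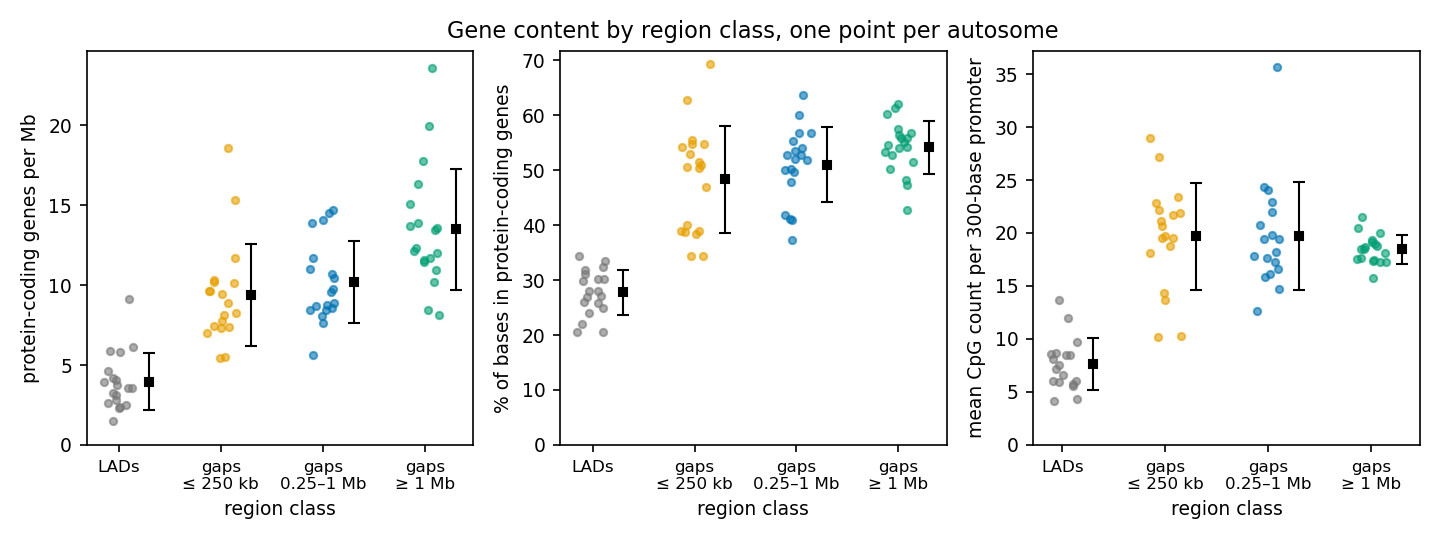
Protein-coding genes per Mb (left), percent of bases in protein-coding genes (middle) and mean CpG count per 300-base promoter (right) in 4 region classes; each circle is 1 autosome (19, or 18 for promoters) and black squares with bars are the mean ± SD over autosomes. The gaps of 0.25 to 1 Mb average 10.2 genes per Mb, above the 3.96 of LADs and below the 13.5 of gaps of at least 1 Mb.

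The lower density than in longer regions was not detected close to the borders. In the 5 bins of 25 kb nearest a border, a zone that every gap of this class contains on both sides, there were 9.76 ± 2.90 genes per Mb in these gaps and 10.3 ± 3.27 in gaps of at least 1 Mb (difference -0.510 ± 2.99, SD, n = 19; lower on 12 of 19 autosomes, permutation p = 0.466, adjusted 0.518). In the first 25 kb the density was 5.93 ± 3.05 per Mb in these gaps and 5.61 ± 3.05 in the longer ones. It was 11.8 ± 3.11 from 50 to 75 kb in these gaps, and 10.5 ± 4.36 from 175 to 200 kb, where the longer regions had 13.8 ± 5.69. The first bin was thus the lowest of the profile, and from 50 to 275 kb the densities of the gaps lay between 8.85 and 12.8 per Mb. The SD values over autosomes overlapped those of the longer regions in each bin, which says nothing of a difference paired by autosome. The number of gaps that reach a bin fell from 301 at the border to 99 at 250 to 275 kb, and whether the difference from longer regions varies with distance was not tested.

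**Figure D2:**
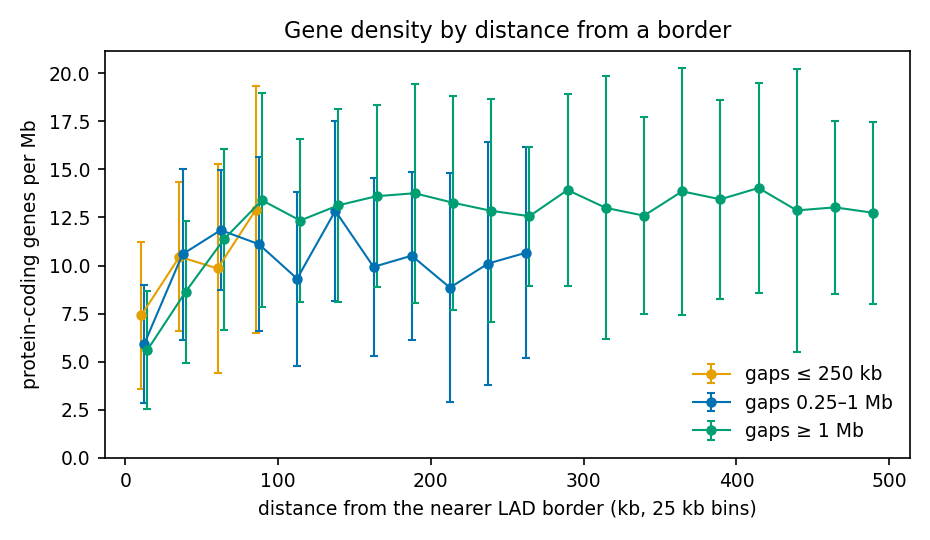
Protein-coding genes per Mb (vertical axis) by distance from the nearer LAD border in bins of 25 kb (horizontal axis), for 3 classes of gaps; points are means and bars the SD over 19 autosomes, drawn slightly apart. In the gaps of 0.25 to 1 Mb the first bin stands at 5.93 and the bin from 50 to 75 kb at 11.8, near the values of the longer regions.

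Promoters of genes in these gaps were richer in CpG than those in LADs. Among 1222 promoters (81.1% of the genes in gaps outside chromosome 18, whose sequences were not used here), the CpG count per 300 bases averaged 19.7 ± 5.09 per autosome, against 7.60 ± 2.46 in LADs (SD, n = 18). It was higher in the gaps on 18 of 18 autosomes, by 12.1 ± 4.00 (permutation p = 3.00e-05, adjusted 1.00e-04). The median promoter had 18 CpG in the gaps and 2 in LADs, and 70.7% and 22.7% had at least 10. Without olfactory and vomeronasal receptor genes the means were 20.2 in the gaps and 9.43 in LADs. That difference was 10.8, higher on 18 of 18 autosomes (permutation p = 3.00e-05, adjusted 1.00e-04). The differences from gaps of at most 250 kb (0.0532 ± 4.88, adjusted permutation p = 0.963) and from those of at least 1 Mb (1.28 ± 4.87, adjusted permutation p = 0.441) did not pass. Chromosome 15, with 8 promoters in 5 gaps, had the highest mean, 35.6, and without it the difference from the longer regions was 0.347 (permutation p = 0.627, adjusted 0.696) and that from gaps of at most 250 kb -0.333 (permutation p = 0.769, adjusted 0.769). With the 675 promoters (55.2%) that start at the outermost 5′ end of their gene, and the like in the other classes, the difference from LADs was 12.1, that from gaps of at most 250 kb -0.161 and that from those of at least 1 Mb 0.470. Without chromosome 15 the difference from LADs was 11.6, higher on 17 of 17 autosomes (permutation p = 3.00e-05, adjusted 1.00e-04).

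Short motifs were counted on both strands of the same windows. GGGCGG, the GC box, was in 52.6% of promoters in the gaps, 56.4% in gaps of at most 250 kb, 56.2% in those of at least 1 Mb, 19.5% in LADs and 47.3% of all 16457 autosomal promoters. In the same order, TATAAA was in 10.3%, 8.83%, 9.46%, 26.6% and 13.5%, and CCAAT was in 39.2%, 36.5%, 38.3%, 41.6% and 39.1%. For GGGCGG and TATAAA the 3 classes of gaps thus lay nearer to each other than to LADs. GGGCGG contains a CpG and so overlaps the CpG count, and a match describes letters and not a bound site. Of the 414 outermost genes with a known strand in 207 gaps that had at least 2 such genes, 196 (47.3%) had their start on the side of the border, beside 47.0% of 530 in the longer regions and 44.1% of 256 in gaps of at most 250 kb.

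Single gaps ranged from 0 to 40 protein-coding genes, with a median of 4 and quartiles of 2 and 7. There were 24 gaps (7.97%) without the midpoint of a protein-coding gene, 34 with 1, 132 with 2 to 5, 79 with 6 to 9 and 32 with 10 or more, which together held 522 of the 1562 genes (33.4%). Longer gaps held more genes (Spearman rank correlation 0.40 over 301 gaps, a description), while the rank correlation of length with genes per Mb was -0.02. By length, the density was 10.4 per Mb in the 100 shortest gaps, 10.9 in the next 100 and 9.99 in the 101 longest.

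**Figure D3:**
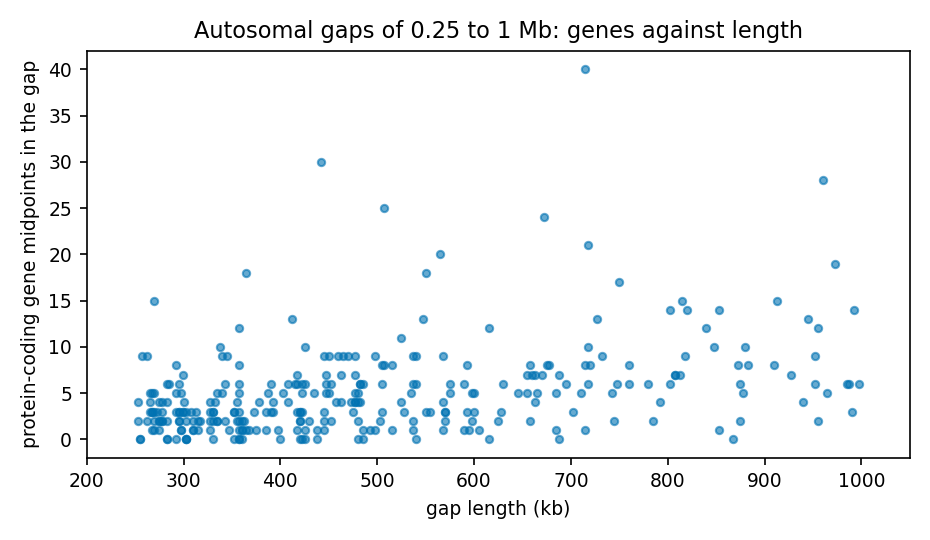
Number of protein-coding gene midpoints (vertical axis) against the length in kb (horizontal axis) of the 301 autosomal gaps of 0.25 to 1 Mb, 1 point per gap. The median gap holds 4 genes, and the fullest, of 715.0 kb, holds 40.

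The fullest gap lay on chromosome 7 (4405114-5120111, 715.0 kb) and held 40 protein-coding genes, or 55.9 per Mb. Among them were the troponin genes Tnnt1 and Tnni3 of muscle thin filaments, Kmt5c, which methylates H4K20 in heterochromatin, the ribosomal gene Rpl28 and the splicing factor gene U2af2. The LAD after it (992.5 kb) held 15 genes, of which 12 were vomeronasal receptors. The next, on chromosome 13 (21630774-22073271, 442.5 kb), held 30 genes, 23 of them histone genes, at the highest density of the 5, 67.8 per Mb, although genes covered 16.1% of its bases. It ended at a LAD of 1175 kb in which 35 of 36 genes were olfactory or vomeronasal receptors. A gap on chromosome 9 (106121249-107081245, 960.0 kb) held 28 genes, from Tlr9, a sensor of unmethylated DNA, and Alas1, of haem synthesis, to Dock3, which was the longest at 339.5 kb.

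The other 2 of the 5 fullest gaps held immune genes beside olfactory receptors. The gap on chromosome 17 (36741473-37248970, 507.5 kb) had 25 genes, with the class I histocompatibility genes H2-M10.5, H2-M10.6 and H2-M5, 5 Trim genes and 8 olfactory receptors, and the LAD after it (2552 kb) held 38 receptors among 48 genes. The gap on chromosome 11 (48733020-49405517, 672.5 kb) had 24 genes, with Rack1, a ribosome scaffold, the interferon-inducible GTPase genes Irgm1, Tgtp1, Tgtp2 and Ifi47, and 9 olfactory receptors. The LAD after it (87.5 kb) held 4 genes, all of them olfactory receptors. Of these 5 gaps, 4 thus adjoined a LAD with chemoreceptor genes and 3 held olfactory receptors themselves, a description of gaps chosen for their gene number. Of all 301 gaps, 25 (8.31%) adjoined such a LAD.

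At the other end were gaps with few genes or none. The longest gap without a protein-coding midpoint lay on chromosome 14 (89186040-90053536, 867.5 kb) between LADs of 1625 and 2822 kb, with 4 other annotated genes, none of which codes for a protein. The next were on chromosome 15 (23983606-24671103, 687.5 kb) with 3 such genes and on chromosome 4 (29343331-29958328, 615.0 kb) with 0. Of the 24 gaps without a midpoint, 8 overlapped part of a protein-coding gene. In 5 of the 301 gaps no gene of any kind had its midpoint.

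The 34 gaps with 1 protein-coding gene often held a long gene. The median length of these genes was 206.0 kb, against 25.7 kb for all protein-coding genes of the gaps, and 17 exceeded 200 kb. In 7 of the 34 the gene was longer than its gap, which held its midpoint and only part of it. Being alone refers to midpoints: in the gap of Stk17b on chromosome 1, Hecw2 covered 58.3% of the length. The shortest such gap, on chromosome 1 (23132428-23399926, 267.5 kb), held Ogfrl1 with the miRNA genes Mir30a and Mir30c-2. The following were singled out after their values were seen. Transcription factor genes alone in their gap included Ikzf2 (595.0 kb), Ets1 (425.0 kb), Mitf (360.0 kb), Maf (515.0 kb), Zfhx3 (685.0 kb), Zfhx4 (357.5 kb) and Zfp521 (367.5 kb). Other examples of genes alone in their gap were Tgfbr2, a receptor of transforming growth factor beta (310.0 kb), Spry2, an inhibitor of receptor tyrosine kinase signalling (445.0 kb), and the N-cadherin gene Cdh2 (385.0 kb). The gene could also be short: in 7 of the 34 gaps it measured under 20 kb, and Maf filled 0.707% of its gap.

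In 39 gaps a single protein-coding gene took at least 50% of the length, and 5 gaps lay wholly inside a gene. They were in Arhgap24, a GTPase-activating protein gene of 697.8 kb (chromosome 5, 102364488-102901986, 537.5 kb), in Rbfox1, a neuronal splicing regulator (chromosome 16, 6687147-7087145), and in Cadm2, a cell adhesion gene of 965.5 kb (chromosome 16, 66876956-67251954, 375.0 kb). The other 2 were in Tenm3, a teneurin of neuronal adhesion that spans 1297 kb of chromosome 8 (48758054-49068052 and 49130553-49488051, 310.0 and 357.5 kb). Between the gaps in Tenm3 lay a LAD of 62.5 kb. These genes crossed from LAD to gap and back within their transcribed length.

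The miRNA-rich gap on chromosome 12 (109379898-109742396, 362.5 kb) lay between LADs of 355.0 and 187.5 kb and held only 2 protein-coding midpoints, those of Dlk1, a Notch-like membrane protein expressed from the paternal allele, and Rtl1, a retrotransposon-derived gene of placental capillaries. The noncoding genes Meg3 (109540996-109571729) and Rian (109603945-109661716), known to be transcribed from the maternal allele, lay wholly inside. The mature miRNAs spanned 196.0 kb, began 164.7 kb from the left border and ended 1.82 kb before the right one. Mirg, the noncoding gene at the end of the cluster (109734981-109749458), crossed that border and ran 7.06 kb into the LAD, which is a few steps of the 2.5 kb grid on which domain lengths lie. The gap also held 19 of the 103 small nucleolar RNA genes of these gaps, which are 8.19% of the autosomal ones. With its miRNA genes left out, the share of autosomal miRNA genes in the gaps was 6.37% in place of 11.0%.

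Transfer RNA genes were likewise concentrated. The gaps held 94 of 381 autosomal tRNA genes (24.7%), in 11 gaps. A pair of gaps on chromosome 13 (21150775-21563273 and 21630774-22073271), parted by a LAD of 67.5 kb, held 25 and 34 of them, so that with their genes left out the share was 10.9%. The second of the pair is the histone gap, whose 23 histone genes were the linker histone gene H1f5 and core histone genes such as H2bc13 and H4c11. The first held 13 protein-coding genes, with Trim27, the zinc finger genes Zscan12, Zkscan3 and Zkscan8, the glutathione peroxidases Gpx5 and Gpx6, and 3 olfactory receptors. The tRNA genes of both gaps and the histone genes of the second thus come from 1 stretch of chromosome 13, and their counts are not independent.

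Lists of genes by role were counted against the 7.84% of all autosomal protein-coding genes that lay in these gaps. Of all genes, 65.2% lay in regions of at least 1 Mb and 23.7% in LADs. Of 39 fibroblast and matrix genes, 2 did (5.13%): Lox, which crosslinks collagen and elastin, in the second shortest gap (chromosome 18, 52423851-52676350, 252.5 kb), and the smooth muscle actin gene Acta2, 119.5 kb from a border in a gap of 912.5 kb on chromosome 19 that also holds Fas and the interferon-induced Ifit genes. Of these 39, 33 (84.6%, beside 65.2% of all genes) lay in regions of at least 1 Mb. The share there was 80% for 40 mesenchymal transcription factors and 91.7% for 24 housekeeping genes, so a high share was not particular to the fibroblast list. Of 40 mesenchymal transcription factors, 2 lay in the gaps (5%), Six2 and Tbx15, in gaps of 317.5 and 315.0 kb. Of 24 housekeeping genes, 2 did (8.33%), Chmp2a, of the ESCRT membrane machinery, and Emc7, of a complex that inserts membrane proteins. With 2 genes in each of these lists, the shares could move by several percentage points with 1 gene.

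Genes of the lamina itself were among those found in the gaps. Of 33 genes of the lamina and heterochromatin, 5 lay there (15.2%), 27 in longer regions (81.8%, beside 65.2% of all genes) and 1 in a LAD (3.03%, beside 23.7%). Lmnb1, which encodes Lamin B1, lay 253.2 kb from a border in a gap of 662.5 kb on chromosome 18 (56321339-56983836). Tmpo, whose products bind lamins at the inner nuclear membrane, was 106.1 kb from a border in a gap of 277.5 kb on chromosome 10 (90993293-91270791) between LADs of 1107 and 1732 kb. Setdb2, of the H3K9 methyltransferase family, Kmt5c and Syne3, a nesprin of the outer nuclear membrane, were in gaps of 615.0, 715.0 and 525.0 kb.

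Of 64 genes that mark other lineages, 9 lay in the gaps (14.1%) and 20 in LADs (31.2%, beside 23.7% of all genes). Nanog and Dppa3, of pluripotent cells, shared a gap of 425.0 kb on chromosome 6 (122481760-122906758) with 8 more protein-coding genes, among them Gdf3, a ligand of the TGF-beta family, and Slc2a3, a glucose transporter gene. That gap lay between LADs of 72.5 and 1442 kb. The other 7 were Actn2 of muscle, Cdh5 of endothelium, Map2 and Slc17a6 of neurons, Mitf of melanocytes, Pdx1 of pancreas and Ttr of liver, in gaps of 360.0 to 997.5 kb. Slc17a6, a vesicular glutamate transporter, was the nearest of the 9 to a border, at 51.5 kb, and Map2 the farthest, at 406.6 kb.

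Gene families differed in how they were spread. All 23 histone genes in these gaps (30.3% of 76) were in the 1 gap of chromosome 13. The 12 ribosomal protein genes (15.2% of 79) were in 12 different gaps, with Rps6 in a gap of 425.0 kb and Rpl15 in one of 987.5 kb. Ubiquitin-conjugating E2 enzymes contributed 8 of 33 genes (24.2%) in 7 gaps, with Ube2e1 and Ube2e2 in the same gap and Ube2d1, Ube2d3, Ube2l6, Ube2m, Ube2s and Ube2w apart. Of 60 genes with Rab symbols, 7 (11.7%) lay in 7 gaps, with Rab5a of early endosomes in a gap of 265.0 kb; 1 of the 7, Rab3gap1, encodes a regulator of a Rab and not a Rab. The 4 proteasome genes (8% of 50) were the core subunit genes Psma1 and Psma8, the assembly chaperone gene Psmg1 and Psme2b, an activator gene.

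Chemoreceptor genes, known to lie mostly in LADs, had low shares in the gaps. Olfactory receptors lay there in 35 of 1103 cases (3.17%), in 8 gaps, at a median of 77.6 kb from the nearer border, against 129.2 kb for all protein-coding genes of the gaps. Vomeronasal receptors did in 3 of 350 cases (0.857%), Vmn1r37, Vmn1r38 and Vmn1r39 in 1 gap of chromosome 6. Cadherins and protocadherins did in 4 of 90 cases (4.44%), Cdh2, Cdh5, Cdh16 and Pcdh18, the last alone in a gap of 437.5 kb. Among developmental families, Fox genes (4 of 39, 10.3%) and Fgf genes (2 of 17, 11.8%) had shares above the 7.84% of all genes, on few genes. They were Foxd4, Foxj2, Foxl2 and Foxn2, and Fgf5 and Fgf20. Wnt genes had 1 of 19 (5.26%, Wnt16) and Sox genes 1 of 18 (5.56%, Sox30). Foxl2, of ovary and eyelid, was 3.10 kb from its border, about the resolution of the list. None of 39 Hox genes and none of 49 keratin genes lay in a gap of this class, and all of both were in regions of at least 1 Mb. None of 9 Pax and none of 10 Bmp genes lay in such a gap either, but lists this short would hold few genes at the 7.84% of all genes. Genes of a family can lie side by side, as the histone genes did, so these counts are not of independent genes. Genes with potassium channel symbols had 5 of 87 (5.75%), with Kcnj9 and Kcnj10 in the same gap; 1 of the 5, Kcnip1, encodes a protein that binds channels and not a channel, and Kcnmb3 encodes an accessory subunit. Collagens had 1 of 42, Col10a1 of growing cartilage. Solute carriers (29 of 347, 8.36%) and Zfp zinc finger genes (29 of 385, 7.53%) had shares near the 7.84% of all genes.

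**Figure D4:**
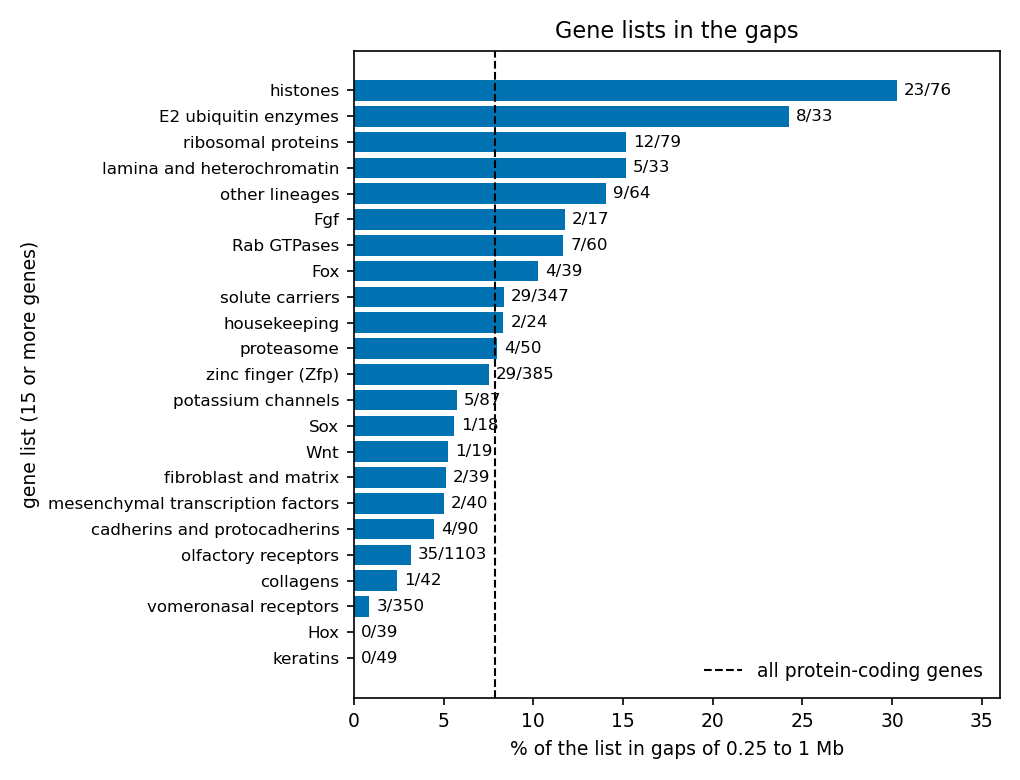
Percent of each gene list (horizontal axis) whose midpoint lies in an autosomal gap of 0.25 to 1 Mb, for the lists of 15 or more genes (vertical axis), with the counts beside the bars; the dashed line is the 7.84% of all autosomal protein-coding genes. Histones reach 30.3%, all in 1 gap, while Hox genes and keratins are at 0.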

How the data were processed

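CUT&RUN libraries of mouse embryonic fibroblasts were aligned with Bowtie2 to mm10, per the submitters' processing notes. The LAD caller, its threshold and the use of IgG or spike-in are not given in the sources used here. The authors deposited 1 list of 1437 domains by position, and its score column is 0 for all of them. Only its name, which says merged, shows that libraries were combined. All domain lengths (100%) lie within 125 bp of a multiple of 2.5 kb, which limits how closely a border is placed.

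Gaps were taken on chromosomes 1 to 19 after sorting. Genes were those of RefSeq on GRCm38.p6, placed by midpoint (19916 of 20665 autosomal protein-coding genes lay in a chromosome span), and promoters were its windows of 250 bases before to 50 after the start nearest the 5′ end of the gene. The 10 comparisons used 1 value per autosome and a two-sided sign-flip permutation test with 100000 resamples, adjusted by the Benjamini-Hochberg method, and the test was tested on simulated data. Python 3.11.15, numpy 2.4.6 and pandas 2.3.3 were used. The members and lists were chosen with earlier results of these data known. Regions were named by rank (the shortest and longest, the fullest, the longest without genes, those inside 1 gene), and genes by the lists and as the longest of a named gap. Promoters are printed as the 250 bases before the start, only where that start is the outermost 5′ end of the gene. No printed base thus lies in its gene. Named with them were further genes of the named gaps, chosen after their values were seen. Some genes that these rules name are not reported here. Alternatives changed the limits, the smallest LAD, the place of a gene and the genes counted.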

Additional observations from a re-analysis of the deposited data

How the results depend on the processing

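Of 59 alternatives, 53 concerned a tested difference, of which 46 kept its direction and its side of the adjusted threshold of 0.05. With all annotated genes, the difference from gaps of at least 1 Mb was -4.15 genes per Mb (adjusted permutation p = 0.0604), and that in the 5 bins of 25 kb nearest a border was 0.208 (permutation p = 0.909). Within 25 kb of a border, an alternative chosen after seeing the data, the difference from gaps of at most 250 kb was -1.48 (permutation p = 0.109) and that from gaps of at least 1 Mb 0.319 (permutation p = 0.710), both against the direction over whole gaps, and the latter also against that in those 5 bins. Without chromosome 15, also chosen after seeing the data, the CpG difference from gaps of at most 250 kb was -0.333, and with only promoters at the outermost 5′ end of their gene, added later still, it was -0.161 (permutation p = 0.886). The cause was not tested. Counting only genes wholly inside, the gaps held 7.44% of protein-coding genes in place of 7.84% (95% Wilson interval 7.48 to 8.22). Counting any overlap, 5.32% of gaps held none in place of 7.97% (5.42 to 11.6). Both changes follow from how a gene is placed. The intervals take genes and gaps as independent draws, though genes lay in clusters, and they say nothing of biological replication. Limits of 300 to 900 kb left 234 gaps. Without the 176 LADs under 100 kb there were 291, of which 223 were the same as before (74.1% of the 301). The tests pair regions by chromosome. No paired analysis was possible because a single merged list carries no values by replicate, as far as pairing by replicate number goes, and replicates could not be left out in turn. Read depth is unknown, so its effect on the borders could not be measured.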
